A study of Drosophila melanogaster with 2 samples.

Results

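CG9948 is an uncharacterized Drosophila melanogaster gene, and its protein was mapped on chromatin by ChIP-seq with an antibody against GFP in whole pupae aged 24 h. All pupae came from a transgenic line that carries CG9948 fused to GFP at the C terminus. There were 2 biological replicates, numbered 1 and 3, in a single group, so no contrast between conditions was possible. The genes described here are 32 transcription factor and cofactor genes that pattern the imaginal discs, of 13945 protein-coding genes in the dm6 annotation. They were chosen by name, and h, for hairy, appears under its current symbol hry. A peak was given to a gene when its summit lay in the gene body or within 5 kb of any of its transcription start sites (TSSs), an area called the territory. A summit within 500 bp of a TSS of the gene was a promoter peak. The optimal IDR (irreproducible discovery rate) list held 62 such peaks of 7637 in all. The sex of the pupae was not collected, and pupae without the fusion were not analysed here. Whole pupae mix disc tissue with all other tissues, and the lists do not say from which cells a peak came.

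Imaginal discs are sacs of larval epithelium that form the adult wings, legs, eyes, antennae and thorax during metamorphosis. Transcription factors divide each disc into compartments, set its proximal-distal axis and prefigure its bristles, and most of their genes are read through many separate enhancers spread over long introns and flanks. In the pupa many of them go on acting in the appendages that the discs have formed.

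The deposited lists held 30000 peaks each for replicate 1, for replicate 3 and for the pooled reads. The signal of a peak is the authors' own value, on a scale that the sources used here do not state. All 7637 IDR peaks were pooled peaks, and they were exactly those with a signal of at least 149.8. Read depth is unknown, so intervals given for shares cover counting error over genes or peaks only.

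Of the 32 genes, 5 had a promoter peak in the IDR list (15.6%, 95% Wilson interval 6.86 to 31.8), against 18.0% of all protein-coding genes. Any IDR peak in the territory was found at 16 of 32 (interval 33.6% to 66.4%), against 45.1% of all protein-coding genes. Both shares lay near the background. The territories of the patterning genes had a median length of 22.4 kb. Among the 1203 protein-coding genes with a territory at least as long as that median, 29.3% had a promoter peak and 68.4% any peak. Their own median was longer, at 37.7 kb. By length, an IDR peak was found at 2 of 8 patterning genes with territories of 10 to 15 kb (41.7% of 11898 other coding genes of that length) and at 6 of 10 from 15 to 25 kb (60.4% of 996). The counts were 4 of 10 from 25 to 50 kb (67.4% of 645) and 4 of 4 above 50 kb (71.8% of 372). Together the territories covered 1005 kb and held 6.17 IDR peaks per 100 kb, against 6.11 per 100 kb over the territories of all protein-coding genes.

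The peaks were spread unevenly. The 4 genes with the most, hth, bab1, inv and ct, held 37 of the 62 peaks (59.7%), and hth alone held 18 (29.0%). Without hth the density was 5.07 IDR peaks per 100 kb.

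**Figure D1:**
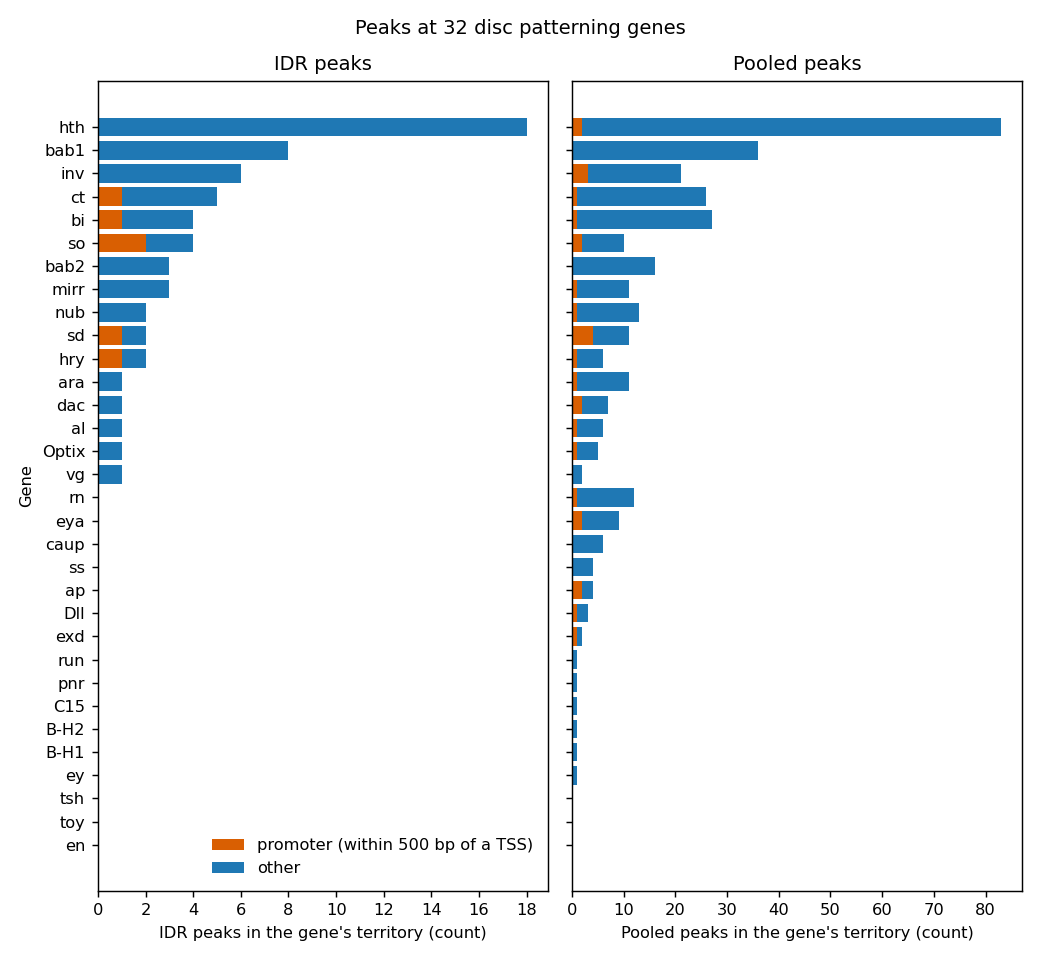
Number of peaks in the territory of each of the 32 genes, in the IDR list (left) and in the list of the pooled reads (right), with promoter peaks in orange and other peaks in blue. hth stands first in both with 18 IDR and 83 pooled peaks, and 16 genes have no IDR peak.

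Few of the 62 peaks lay at promoters. Of them 6 were promoter peaks (9.68%, 4.51 to 19.5), against 31.2% of the IDR peaks in the territories of all protein-coding genes. Among peaks of the 1203 genes with long territories the share was 12.4%. By place relative to the patterning gene, 49 summits lay in an intron, 11 upstream, 1 in a 5′ UTR and 1 downstream, and none in a coding exon. The 50 inside the gene body were 80.6%, against 70.5% over the territories of all protein-coding genes and 85.7% over long territories. At 8 of the 62 summits the nearest protein-coding TSS belonged to another gene. Of the 56 peaks outside promoters, 45 were more than 5 kb from every TSS of the gene, with a median distance of 11.5 kb over all 56 and a longest of 96.3 kb. Their signals were moderate. The median was 260 for the 62 peaks and 312 for the 7575 other IDR peaks, and 25 of the 62 exceeded the median of the whole list. None of the 62 was among the strongest 10% of IDR peaks, and the best ranked 776 of 7637.

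Sequences are shown for the 4 strongest of the 62 peaks and for promoter peaks of ct and bi, as examples of summits with and without A and T tracts. They do not cover the whole range. The strongest promoter peak (379, at so) and the summit richest in A + T (82.2%, at inv) are not among them. Each is the forward strand of the RefSeq release 6 genome, in dm6 coordinates, over 101 bases centred on the summit. Runs of at least 6 A and T letters are in capitals. The windows are chr2L:12602305-12602405 at nub, chr3L:1089433-1089533 at bab1, chrX:7604621-7604721 upstream of ct, chr3R:10517960-10518060 at hth, chrX:7608141-7608241 at the ct promoter and chrX:4426970-4427070 at an internal bi promoter.
nub intron: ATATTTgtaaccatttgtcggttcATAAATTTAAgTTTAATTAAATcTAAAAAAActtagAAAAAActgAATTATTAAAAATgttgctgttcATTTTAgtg
bab1 intron: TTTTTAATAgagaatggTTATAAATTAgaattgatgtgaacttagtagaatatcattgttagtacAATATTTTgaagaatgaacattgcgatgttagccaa
ct upstream: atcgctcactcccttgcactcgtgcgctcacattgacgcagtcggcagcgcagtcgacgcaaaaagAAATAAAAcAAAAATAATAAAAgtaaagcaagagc
hth intron: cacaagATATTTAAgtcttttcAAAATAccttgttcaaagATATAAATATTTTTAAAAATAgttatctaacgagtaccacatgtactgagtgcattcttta
ct promoter: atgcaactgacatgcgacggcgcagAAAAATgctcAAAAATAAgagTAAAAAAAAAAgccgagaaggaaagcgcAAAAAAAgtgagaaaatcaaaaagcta
bi promoter: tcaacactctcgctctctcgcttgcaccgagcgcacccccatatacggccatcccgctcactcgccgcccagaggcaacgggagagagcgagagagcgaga
The nub window held 7 such runs and the hth window the longest, of 21 letters. The bi window held none, and with 35.6% A + T it was the poorest in A + T of all 62.

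Among genes of the proximal-distal axis, hth carried the most peaks. It codes for a TALE homeodomain protein that brings Exd, a homeodomain cofactor of Hox proteins, into the nucleus, and it marks proximal parts of the appendages. hth lies at chr3R:10507561-10639568 on the minus strand, and its 137 kb territory had 18 IDR peaks, 13.1 per 100 kb. By number of IDR peaks it ranked 13 among the 13945 protein-coding genes. Its density of IDR peaks, which allows for the long territory, was above that of 83.4% of them. By number of pooled peaks, 83, it shared rank 2 with SKIP, and replicates 1 and 3 had 64 and 80 peaks there. Its density of pooled peaks, 60.6 per 100 kb, was above that of 91.8% of protein-coding genes. None of the 18 was a promoter peak. Of the 18 summits, 17 were in introns, and the other was upstream of the gene, in the antisense gene asRNA:CR44018.

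The strongest hth peak had a signal of 778, with 289 in replicate 1 and 498 in replicate 3, and lay in an intron 96.3 kb from the nearest hth TSS. A TSS of Cyp12e1 was nearer, at 83221 bp. A group of neighbours lay 83507, 82330 and 80926 bp downstream of a TSS, with signals of 399, 369 and 531. A group near the 5′ end lay 5508 to 11087 bp downstream, where 5 summits followed each other with gaps of at most 2 kb and signals of 176 to 293. Replicate 1 had no matching peak 25113 bp downstream (signal 174), and replicate 3 had a peak at every hth summit. exd, the partner of hth, had no IDR peak in a territory of 10.5 kb, and its strongest pooled signal was 85.3.

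bab1 and bab2 code for related BTB proteins that act in the tarsal segments of the leg and in abdominal pigmentation. bab1 (chr3L:1036369-1101089) had 8 IDR peaks, all in introns, and bab2 (chr3L:1140429-1177276) had 3. The strongest at bab1 lay 11606 bp downstream of the TSS with a signal of 917, and 307 and 596 in replicates 1 and 3. Around it 4 summits fell within 3157 bp. The strongest at bab2 lay 975 bp upstream of the TSS and had a signal of 260, with 34.3 and 205 in replicates 1 and 3. The bab1 territory was longer, at 69.7 kb against 41.8 kb, and its density was 11.5 IDR peaks per 100 kb against 7.17 at bab2. In the pooled list both were above the 22.4 peaks per 100 kb of the chromosomes, at 51.6 for bab1 and 38.2 for bab2.

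The leg genes as a group had an IDR peak at 4 of 12 (33.3%, 13.8 to 60.9), against the 45.1% of all protein-coding genes, and 6.78 peaks per 100 kb. hth alone held 18 of their 30 peaks. Their territories had a median of 25.2 kb. Of other coding genes, 60.4% had an IDR peak at 15 to 25 kb and 67.4% at 25 to 50 kb. dac, which specifies the middle of the leg and takes part in eye formation, had a single intronic peak (signal 155). Those of the 12 without an IDR peak were, besides exd, Dll, which specifies the distal limb, the proximal zinc finger gene tsh, the pretarsal homeobox gene C15, the Bar homeobox genes B-H1 and B-H2, the tarsal zinc finger gene rn and the antennal bHLH-PAS gene ss. Their strongest pooled signals were 146 at Dll, 134 at ss, 95.4 at rn, 71.4 at C15, 59.9 at B-H1 and 57.1 at B-H2, and tsh had no pooled peak. The rn territory of 42.2 kb held 12 pooled peaks, all under the IDR limit. The strongest Dll peak came nearest to that limit among these genes.

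**Figure D2:**
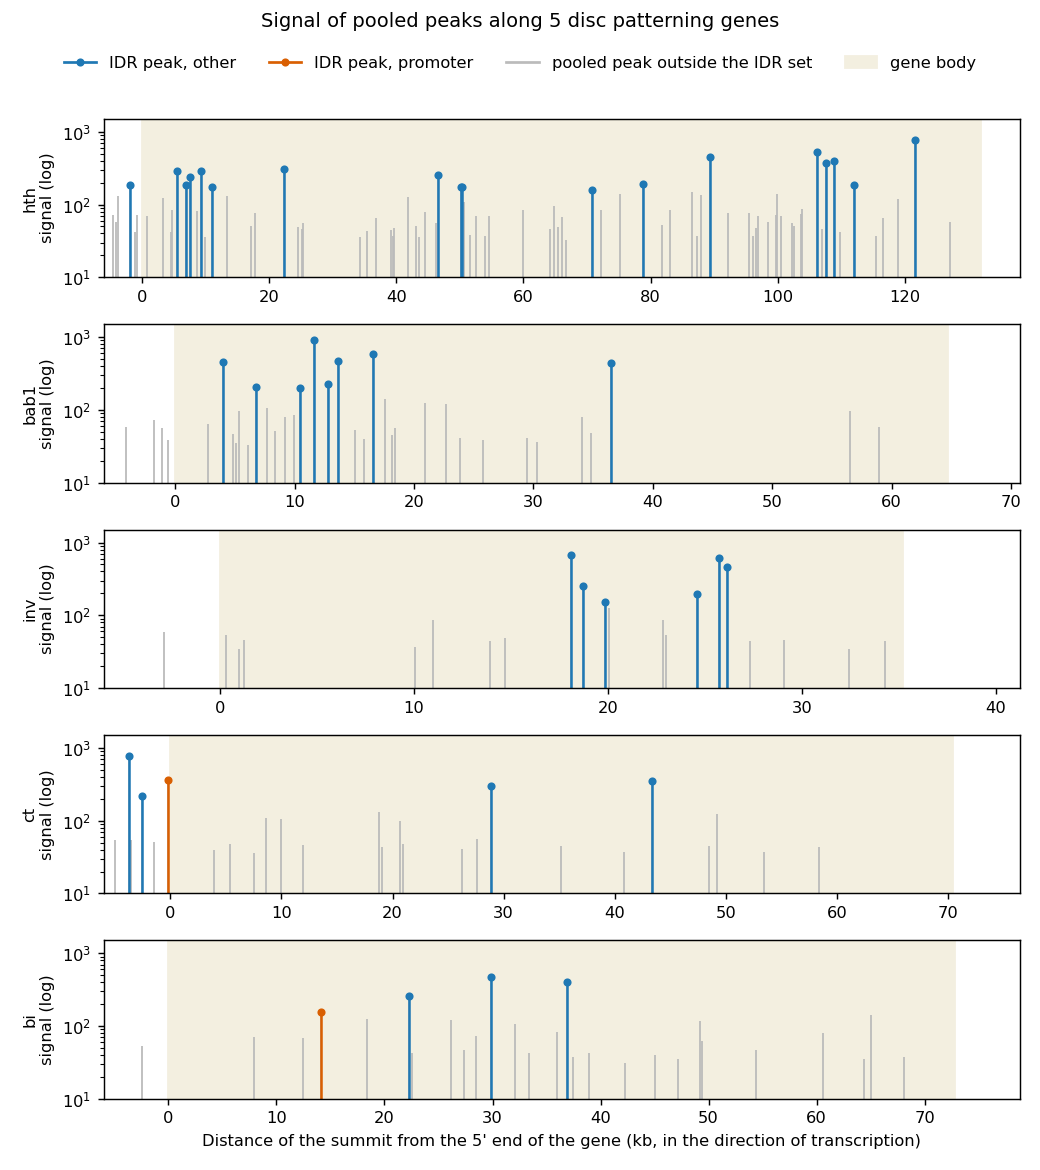
Signal (log scale) of each pooled peak along hth, bab1, inv, ct and bi, at the distance of its summit from the 5′ end of the gene in kb, with IDR peaks in blue (other) or orange (promoter), the remaining pooled peaks in grey and the gene body shaded. The 18 hth peaks run over 123 kb, while the 6 at inv lie within 8.05 kb.

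Among genes of the wing field and its compartments, en and inv are neighbouring homeobox genes that mark posterior compartments. inv (chr2R:11474465-11509695) had 6 IDR peaks, all in introns, and en (chr2R:11524006-11528210) had none, and no pooled peak either. The territory of inv was 40.2 kb long and that of en 10.3 kb, and en had 2 peaks in replicate 3, the stronger (47.7) at its promoter. The strongest inv peaks had signals of 671, 605 and 457. Those of replicate 1 were 213, 280 and 158, and those of replicate 3 were 451, 334 and 346, in the same order. All 6 lay 16834 to 24886 bp downstream of the nearest inv TSS. inv also had promoter peaks in the pooled list (3, strongest signal 52.9) and in both replicate lists, all of them too weak for the IDR set.

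nub, a POU domain gene of the wing pouch and hinge, had the strongest peak of the set. Its signal was 939, with 252 in replicate 1 and 691 in replicate 3. A second nub summit 202 bp away, in the same peak interval, had a signal of 169, with 76.3 in replicate 1 and 78.7 in replicate 3. Both lay in a nub intron, nearer to a TSS of Ref2 (9121 and 8919 bp) than to one of nub. bi, which codes for the T-box factor Optomotor-blind that acts in the wing centre, had 4 IDR peaks. Of these, 3 lay 8014, 15545 and 22572 bp downstream of a TSS with signals of 261, 468 and 406, and the fourth was the promoter peak described further on.

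vg and sd code for the wing selector complex, Vg being the partner of the TEAD protein Sd. Each had IDR peaks that lay at neighbouring genes. The only vg peak (signal 361, 194 and 181 in replicates 1 and 3) lay 208 bp upstream of a TSS of Nmda1 and 4195 bp from one of vg. Its summit fell within both AspRS and Nmda1, and within 500 bp of a TSS of each. One of the 2 sd peaks (195) lay within PGRP-LE, 187 bp upstream of a TSS of that gene. al, a homeobox gene of the leg tip and wing, had an intronic peak (357, 88.4 and 262 in replicates 1 and 3). ap, the LIM homeobox gene of the dorsal wing, had no IDR peak, and its strongest pooled signal was 40.9.

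Among the eye genes, so and Optix had IDR peaks, and ey, toy and eya had none. so and Optix code for homeodomain proteins of the sine oculis family, ey and toy for Pax6 proteins, and eya for the phosphatase that acts with So. so (chr2R:7419350-7434872) had 4 IDR peaks in a 20.5 kb territory, as 2 pairs of summits 201 bp apart. The intronic pair (212 and 156) lay 778 and 979 bp upstream of CG11145, and its second summit also lay within 500 bp of the TSS of lncRNA:CR44203. Optix had a peak 4200 bp downstream of its nearest TSS, beyond the gene (367, 111 and 250 in replicates 1 and 3). eya had 9 pooled peaks of at most 71.6. ey and toy lie on chromosome 4, where replicate 1 had 7 peaks in all and replicate 3 had 196. toy had no peak in any list, and ey had 1 pooled peak (72.0), none in replicate 1 and 6 in replicate 3.

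Among genes of the notum and of the sensory prepattern, ct and mirr had the most peaks. ct codes for a homeodomain protein of the wing margin and of external sense organs. Its strongest peak lay 3757 bp upstream of the nearest TSS with a signal of 779, and 85.4 and 688 in replicates 1 and 3. The intronic ct peaks, 5113 and 19559 bp downstream (302 and 350), had 132 and 130 in replicate 1, more than the upstream peak, and 166 and 217 in replicate 3. The Iroquois homeobox genes ara, caup and mirr prepattern the notum. mirr had 3 intronic peaks (437, 370 and 267), ara had 1 (217) and caup had none, with a strongest pooled signal of 130. The strongest mirr peak had 278 in replicate 3. Replicate 1 had a peak of 161 with its summit 78 bp away, but the 2 intervals shared no base. The GATA factor gene pnr of the dorsal midline and the Runt domain gene run had no IDR peak, and strongest pooled signals of 38.8 and 137.

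Promoter peaks differed in signal, and except at the second so summit they were missing from replicate 1 or weaker there than in replicate 3. This was not particular to promoters, as replicate 3 was higher at 56 of the 58 peaks found in both replicates. The 6 promoter peaks had signals of 157 to 379, with a median of 189, against 331 for IDR promoter peaks of other coding genes, a value that only the strongest at so and ct exceeded. The strongest pair lay 386 and 185 bp upstream of the so TSS, with signals of 379 and 190. Both overlapped a replicate 1 peak of 132, and replicate 3 peaks of 262 and 117. The ct promoter peak, 237 bp upstream of the TSS, had a signal of 357, with 17.0 in replicate 1 and 334 in replicate 3. That of sd (188), in a 5′ UTR 480 bp upstream of a further sd TSS, had 34.5 in replicate 1 and 136 in replicate 3. The promoter peaks of hry, the bHLH repressor gene of the bristle prepattern (175), and of bi (157) had no partner in replicate 1, and 147 and 148 in replicate 3. hry had a further peak 3056 bp upstream (215).

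Promoter shares of these genes differed between the replicate lists more than those of all protein-coding genes, a difference of shares that was not tested. In replicate 1, 5 of 32 had a promoter peak (15.6%, 6.86 to 31.8), against 31.2% of all protein-coding genes. In replicate 3, 23 of 32 had one (71.9%, 54.6 to 84.4), against 45.8%. The pooled list had 18 of 32 (56.2%, 39.3 to 71.8), against 41.8%. Among the 1203 genes with long territories the shares were 49.5% in replicate 1, 62.5% in replicate 3 and 62.6% in the pooled list. In replicate 3 the interval of the patterning genes contained the share of these 1203 genes, and in replicate 1 it lay below that share. The 1203 genes are not matched for length, as their median territory was 37.7 kb against 22.4 kb. Of the 32, 4 had a promoter peak in both replicate lists, namely inv, so, ct and rn, and the fifth of replicate 1 was run. The promoter peaks of replicate 3 were mostly weak, with a median signal of 43.3 against 59.0 for all protein-coding genes. Among the 7637 strongest peaks of each replicate, 1 of the 32 genes (so) had a promoter peak in replicate 1, where the background was 16.1%. In replicate 3 they were 7 (sd, Dll, ey, so, ct, bi and hry), where the background was 18.5%. Each replicate is a single sample, so their difference was not tested.

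**Figure D3:**
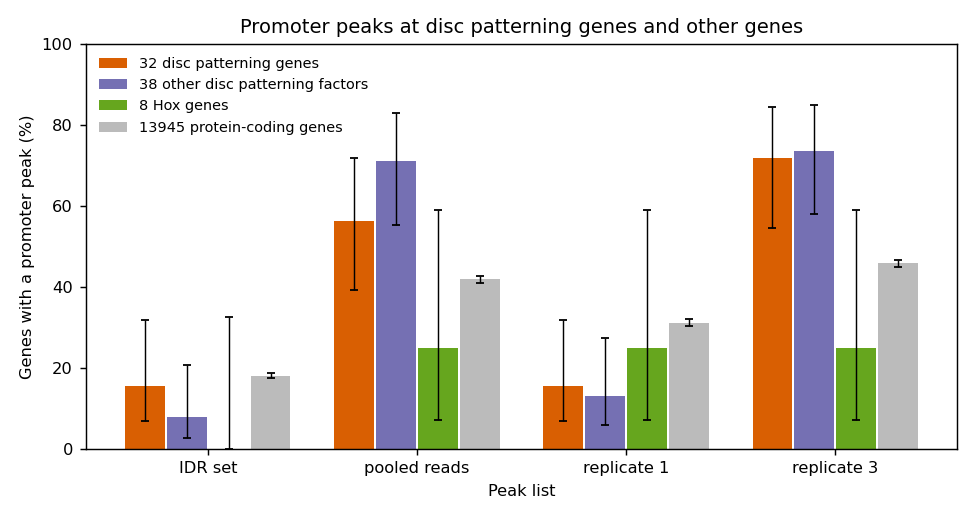
Share of genes with a promoter peak (%) in each of the 4 peak lists, for the 32 disc patterning genes, 38 other disc patterning factors, 8 Hox genes and all 13945 protein-coding genes, with 95% Wilson intervals. The share of the 32 genes is 15.6% in replicate 1 and 71.9% in replicate 3, below and above the grey bars beside them.

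Peaks anywhere in the territory were less divided between the replicates. They were found at 26 of 32 genes in replicate 1 (81.2%, background 75.9%), 28 in replicate 3 (87.5%, background 67.1%) and 29 in the pooled list (90.6%, background 66.9%). Among the 1203 coding genes with long territories these shares were 96.1%, 77.1% and 81.7%. The 1005 kb of territory held 337 pooled peaks, or 33.5 per 100 kb, against 23.9 over all protein-coding genes, and 29.3 without hth. Of the 337, 275 were under the IDR limit, and their overall median signal was 64.5 against 68.6 for all pooled peaks. The density was above that of the chromosomes (22.4 per 100 kb) at 18 of the 32 genes. Among them were hry (58.8), ara (54.1), inv (52.2) and mirr (50.9 per 100 kb). The limit of 22.4 is near the middle of all protein-coding genes. Of these, 47.9% had a density below the 19.1 of exd, and 57.6% one below the 25.4 of Optix. The low end held en, toy and tsh with no pooled peak, and ey, pnr and C15 with 3.51, 4.83 and 5.61 per 100 kb.

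**Figure D4:**
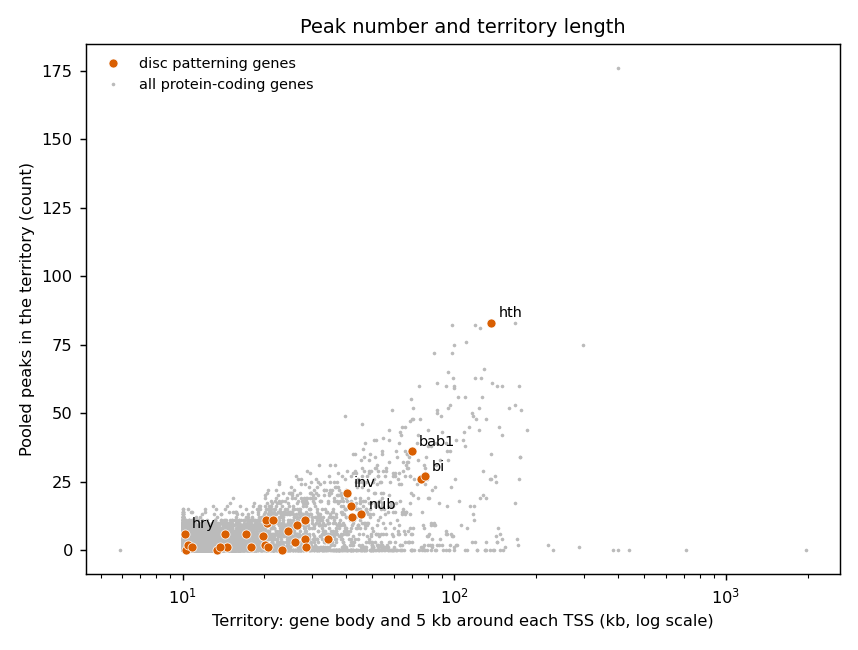
Number of pooled peaks against the length of the territory (kb, log scale), for the 32 genes in orange and all protein-coding genes in grey. hth has 83 peaks in 137 kb, a count that 1 coding gene exceeds and 1 equals.

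Most of the 62 peaks were found in both replicates. A replicate peak was matched when it shared 50% of the shorter peak, and of several the one with the nearest summit was taken. On this rule 58 had one in each replicate (93.5%), against 91.1% of all IDR peaks. All 62 had a partner in replicate 3, and the 4 without one in replicate 1 were those at the promoters of hry and bi, in the mirr intron and in the hth intron. The nearest replicate 1 summit lay 2270 bp away at hry, 573 bp at bi, 78 bp at mirr and 269 bp at hth, so at mirr the interval and not the summit position missed the match. Neighbouring summits shared partners, so the 62 peaks were matched to 56 distinct peaks of replicate 1 and 61 of replicate 3. Signals were higher in replicate 3 at all of the 58 but the vg peak and the second so promoter summit, with a median ratio of replicate 3 to replicate 1 of 2.26 over the 58 and 2.11 over all shared IDR peaks. The ratio ran from 0.893 to 19.6, the highest being the ct promoter. There the replicate 1 peak was among the weakest of its list, at rank 28111 of 30000. Across the 58 peaks, which share their 2 libraries, the signals had a Spearman correlation of 0.517. Across the 6131 other shared IDR peaks no stronger than the strongest of the set it was 0.746.

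**Figure D5:**
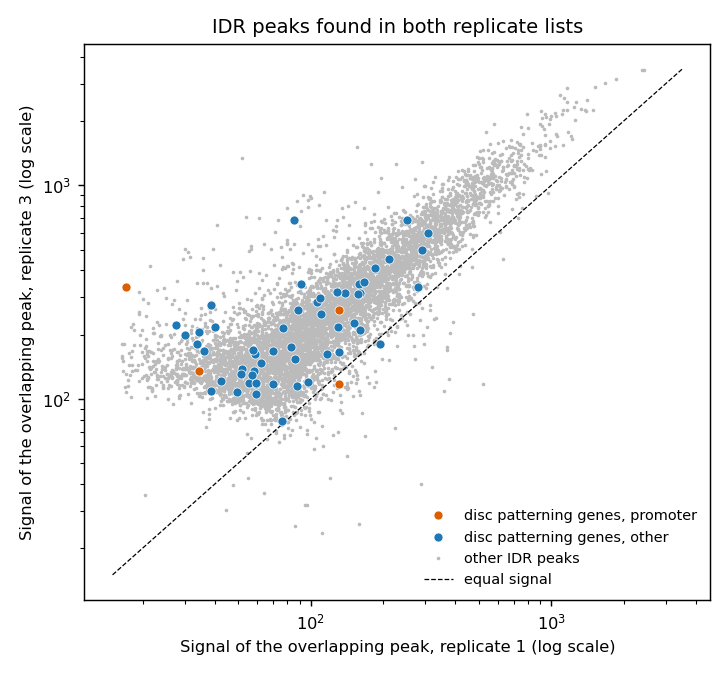
Signal of the overlapping peak in replicate 1 and in replicate 3 (log scales) for each IDR peak found in both lists, with peaks of the disc patterning genes in orange (promoter) and blue (other), all other IDR peaks in grey and equal signal as a dashed line. Most of the 58 coloured points lie above the line, and the ct promoter stands at the left edge with 17.0 and 334.

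The summits were AT-rich, though less so than elsewhere. Within 50 bp of the summit the median A + T content of the 62 peaks was 67.3% (quartiles 62.4 and 73.3), against 71.3% (65.3 and 75.2) for the other 7575 IDR peaks. In flanks centred 200 bp away it was 52.9% against 54.9%, and the summit exceeded its flanks at 51 of 62 peaks (82.3%), against 89.4% of IDR peaks in all coding-gene territories. A run of at least 6 A and T letters was present at 55 of 62 summits (88.7%, 78.5 to 94.4), against 96.8% of the others. The 6 promoter peaks had a median of 58.4%. Summits under 60% A + T, a limit set after the values had been seen, were 13 of 62 (21.0%, 12.7 to 32.6), against 760 of the 7575 other IDR peaks. At those 13, replicate 3 exceeded replicate 1 by a median factor of 5.36 over the 11 with both values, against 2.21 at the other patterning gene peaks. Among other IDR peaks the factors were 2.27 and 2.10. The factor of 5.36 rests on 11 peaks, among them the intronic so pair, whose summits were both matched to the same replicate peaks (33.8 and 181). Within the 11 the ratio went down to 0.893, at the second so promoter summit. The highest ratio, 19.6 at the ct promoter, was at 63.4% A + T and so in the other class. The part of base composition in the replicate difference was not tested.

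Known motifs were counted in the 62 windows, for which the intervals are wide. Each was searched on both strands of the 101 base windows, and the share of the 7575 other IDR windows is given as that of others. The homeodomain core TAATTA was in 4 of 62 windows (6.45%, 2.54 to 15.4, others 11.7%), among them that of nub. TGATNNAT, an Exd-Hox core, was in 8 (12.9%, 6.69 to 23.4, others 9.49%), and TGACAG of the Hth family in none (upper bound 5.83%, others 2.24%). The GATA core GATAA was in 14 (22.6%, others 23.8%), the TEAD core GGAATG in 1 (others 2.97%), the Runx core ACCACA in 2 (others 3.13%) and the E box CACGTG in none (upper bound 5.83%, others 0.370%). GAGAG of the GAGA factor was in 8 (12.9%, 6.69 to 23.4, others 7.78%), among them the bi promoter, and GCCAT of Pho in 6 (9.68%, others 10.9%). CACTG was in 7 (11.3%, others 13.7%) and CGATA of BEAF-32 in 5 (8.06%, others 10.5%). TATCGATA of DREF, which contains CGATA, was in none (upper bound 5.83%, others 0.317%). For each motif found in the 62 windows the share of the others lay inside the interval. With intervals this wide, that does not show equal shares.

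Other patterning factors were counted in the same way. Of 38 further disc genes, 3 had a promoter IDR peak and 20 any IDR peak, with 5.35 peaks per 100 kb. The strongest were at brk, a repressor in Dpp signalling (1660), the odd-skipped family gene bowl (1565, at its promoter), the Pax gene sv (954), and drm (669) and sob (578), also of the odd-skipped family. Their promoters had a peak in 5 of 38 genes in replicate 1 (13.2%) and 28 in replicate 3 (73.7%). Of the 8 Hox genes, 4 had an IDR peak and none a promoter IDR peak, with 3.15 peaks per 100 kb. Antp had 8 of these (strongest 981), Abd-B 1 (777), Ubx 2 (strongest 325) and lab 1 (172). Hox promoters had a peak in 2 of 8 genes in each replicate.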

How the data were processed

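Anti-GFP ChIP-seq of whole pupae was deposited as 4 narrowPeak lists on dm6, per the deposited readme texts: each replicate against a control, both pooled, and the optimal IDR set. Aligner, peak caller and cut-offs: not given in the sources used here. Control reads were not analysed here. The deposited signal was used as the authors gave it. Among the IDR peaks the deposited −log10 q-value is always 4.24, so it ranked nothing. Summit offsets equal to the peak width were set to the last base.

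Genes and TSSs came from Ensembl release 115 on chromosomes 2L, 2R, 3L, 3R, X and 4, without transposable elements. All 32 symbols matched, 1 of them (h) through RefSeq synonyms. Members, lists and motifs were chosen with earlier results of these data known, so no test was run: counts stand beside the share over all protein-coding genes. Flanks were 2 windows of 51 bases. Neighbouring genes can share a peak. All members are accounted for, in full those with a promoter IDR peak, those with the most or strongest peaks and those without an IDR peak. The peak assignment was tested on simulated data. Python 3.11.15, NumPy 2.4.6, pandas 2.3.3, SciPy 1.17.1 and matplotlib 3.10.9 were used.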

Additional observations from a re-analysis of the deposited data

How the results depend on the processing

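The 7 summary results were recomputed under 50 alternatives in all, and 40 values stayed within 1.5 times the count, the interval of the share or the spread between replicates. In the strongest 3818 IDR peaks, 2 genes had a promoter peak, 25 peaks remained in the territories (2.49 per 100 kb) and the median summit A + T content was 70.3%. This list holds 3818 of the 7637 peaks, so lower counts and a lower density follow in part from its size. No share or density over all protein-coding genes is given for it, so these values cannot be set against those of the full list. With replicate 3 replaced by replicate 1 or the reverse (the 7637 strongest peaks of a replicate), the genes with a promoter peak numbered 1 to 7, the promoter share of the peaks was 1.72% to 11.3% and the median A + T content 67.3% to 68.3%. The lower values of the first 2 came without replicate 3. Requiring 50% of both peaks, 71.0% of the peaks were found in both lists. The A + T median was 68.3% with a 10 kb territory and 65.7% within 100 bp of the summit. Leaving out hth, an alternative added after the data had been seen, moved none of the 6 results it applied to past these limits (44 peaks at 15 genes). Replicate peaks were first matched by shared bases, which paired a nub summit with a neighbouring one, and the nearest summit was taken instead after the values had been seen. This changed 3 of the 58 matches, while by shared bases the median ratio was 2.30 and the Spearman correlation 0.471. No paired analysis was possible because the samples form a single group. Apart from the part of the fall in counts and density that comes with the shorter list of strongest peaks, the cause of these changes was not tested. Read depth is unknown, so weak peaks cannot be set against it.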
